A study of Saccharomyces cerevisiae with 4 samples.

Results

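The proteasome genes of budding yeast (*Saccharomyces cerevisiae*) were compared between the SSG1-1 mutant and its wild type. The 33 genes were chosen by name: 14 genes of the 20S core, 10 of the base and 8 of the lid of the regulatory particle, and RPN4, the gene of their transcription factor, out of 5330 genes tested. The tested strain carried the SSG1-1 mutation, and the strain it was set against was W303-1A. The study linked SSG1 to a longer lifespan. Each strain was measured on 2 one-colour Affymetrix arrays, numbered 1 and 2, with RNA from cells kept at 25 °C in rich medium and then grown for 12 h in SDC medium of pH 6.0 until early log phase, a density of 2000000 cells per ml. The labels name neither the gene that carries SSG1-1 nor the number of isolates, so no check of a mutated gene was made. Nothing in them tells separate cultures from repeat arrays of 1 culture, so a p-value here reflects array-to-array spread that may be technical.

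The proteasome is the cell's main machine for breaking down proteins that carry a ubiquitin tag. Its barrel-shaped 20S core is built of outer alpha rings, which gate the entry, and inner beta rings, which hold the proteolytic sites. The 19S regulatory particle sits on the barrel: its base unfolds substrates with a ring of ATPases, and its lid removes the ubiquitin. In yeast the subunit genes share a promoter element bound by the activator Rpn4. Rpn4 is itself a very short-lived substrate of the proteasome, so less proteasome activity means more Rpn4 protein.

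The median deposited signal over probe sets for yeast genes was 874 and 1084 on the mutant arrays and 1171 and 1012 on the wild-type arrays, and the values were quantile normalized before comparison. All signals below are after this step. Both strains showed the markers of a-type cells. All 6 were called present on the arrays with usable calls. So were the 4 genes of the other mating type below, so the calls do not separate the types. The 6 had signals of 2898 or more on every array. STE2, the alpha-factor receptor, had signals of 12655 and 12992 in the mutant and 13837 and 13873 in the wild type. AGA2, a subunit of the a-cell agglutinin, did not pass the adjusted threshold (log2 difference -0.29, limma adjusted p = 0.998, unadjusted p = 0.0378). Of 4 genes of the other mating type, the alpha-factor gene MF(ALPHA)1 had 17.9 and 39.6 in the mutant and 31.2 and 54.9 in the wild type, and STE3 and MF(ALPHA)2 had 110 or less on every array. The fourth, SAG1, the alpha-agglutinin gene, was not low, with 878 and 961 in the mutant and 758 and 1236 in the wild type. An array reads the average over a culture, in which fewer cells making an RNA and less RNA per cell cannot be told apart. Same-numbered arrays of different strains correlated more closely (Pearson's r of 0.989 for number 1 and 0.991 for number 2, across probe sets) than arrays of 1 strain (0.983 in the mutant and 0.985 in the wild type), so differences within each number are given too.

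Each of the 33 genes had 1 probe set, and all were called present in both strains on the arrays with usable calls. In the main fit, which left out the array number, no proteasome transcript was called higher or lower in the mutant. No gene passed the limma test over all 5376 probe sets at an adjusted p under 0.05 (lowest adjusted p = 0.998), a threshold that 0.0186% of all probe sets passed. None was past an unadjusted p under 0.05 either, against 2.72% of all probe sets higher and 1.80% lower. With the array number as a block in the fit, RPN10 and RPN8 passed the adjusted threshold, as did 15.4% of all probe sets. As a log2 difference (mutant minus wild type), the median of the 33 genes was -0.06, against -0.02 over all probe sets tested. Without wild-type array 1 the median of the 33 was -0.01, and it was -0.08 without wild-type array 2. The single differences ran from -0.32 for RPN10 to 0.15 for RPT3.

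**Figure D1:**
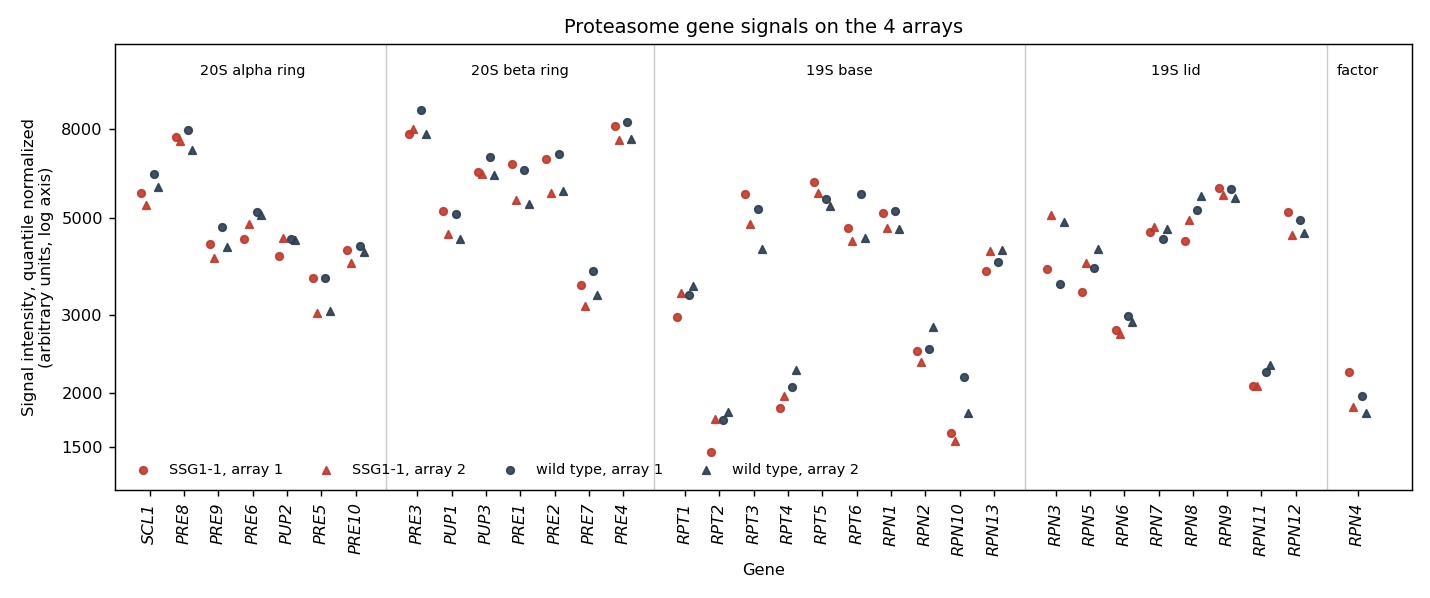
Signal intensity (arbitrary units, log axis) of the 33 proteasome genes on each array, mutant points left of wild-type points, with circles for arrays numbered 1 and triangles for arrays numbered 2. The strains' points lie close together for most genes, RPN10 and RPN8 being lower on both mutant arrays. Heights of different genes come from different probe sets and cannot be compared.

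The precision of these arrays in the main fit, which left out the array number, sets how wide the intervals are. The median standard error of a difference was 0.11 over the 33 genes and 0.16 over all probe sets tested. It was 0.13 over the 1443 probe sets within the signal range of the 33 genes. The 95% intervals of all 33 differences contained 0, and the outermost bounds were -0.70 for RPN10 and 0.64 for RPN3. In folds, mutant over wild type, these bounds are 0.616 and 1.56, so a change of 2-fold either way lay outside the interval of each gene. The intervals take 1 gene at a time without adjustment, so they are not the limit of the adjusted calls. ADR1, not a proteasome gene, had a log2 difference of 1.68 and a limma adjusted p of 0.46. The median half-width of the intervals was 0.28 on the log2 scale, and the widths differed between genes.

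Counted by direction, 23 of the 33 differences were negative and 10 positive after normalization, while 54.1% of all probe sets were negative. In the deposited values all 33 were negative, where the median of all genes was itself -0.15. With each array centred on its median, 20 were negative. Below the median of all genes under the same scaling were 21 after quantile normalization, 22 as deposited and 22 with median centring. The counts as deposited and with median centring are equal by construction, since centring shifts the differences of all genes by the same amount. Both mutant arrays lay below both wild-type arrays for 8 of the 33 genes (24.2%), against 18.0% of all probe sets, and above them for 1 (3.03%), against 14.0%. The 8 were SCL1, PRE6, RPN2, RPT4, RPN10, RPN6, RPN8 and RPN11, and the 1 was RPT5. Among the 1443 probe sets within the signal range of the 33 genes, 55.9% were negative after quantile normalization. Of those probe sets 20% were below on all arrays and 14.8% above. PRE6, RPT4, RPN10, RPN8 and RPN11 were below on all arrays under each of the 3 scalings, and no gene was above under each of them. The 18.0% and 14.0% are for quantile normalization only, and no share of all probe sets is given for the rule over 3 scalings. A count over fewer arrays is looser by construction: it gave between 12 (without wild-type array 1) and 19 (without wild-type array 2) genes below, with 16 without mutant array 1 and 13 without mutant array 2. In the same way the genes above numbered 4 without mutant array 1, 7 without mutant array 2, 10 without wild-type array 1 and 3 without wild-type array 2. No share of all probe sets is given for this looser rule, so the 18.0% and 14.0% cannot serve as its background.

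**Figure D2:**
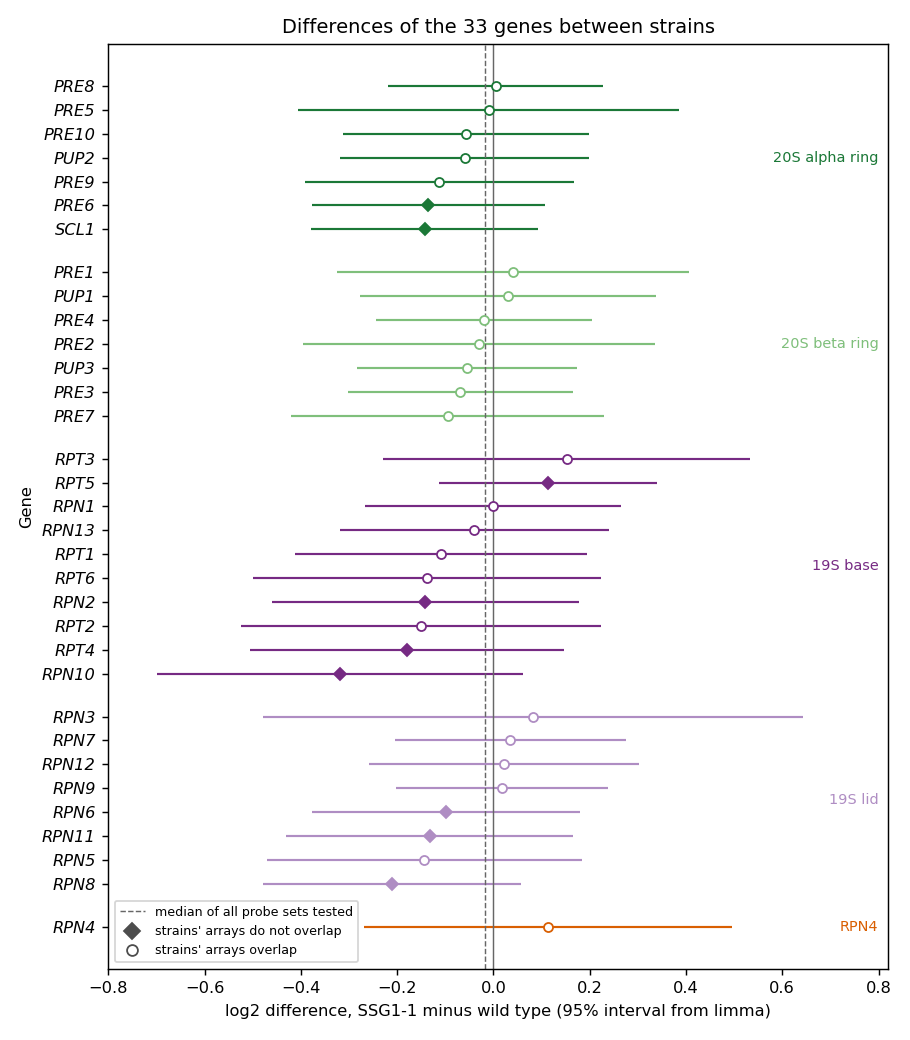
Log2 difference, mutant minus wild type, of each proteasome gene by sub-particle, with the 95% interval from limma (n = 2 arrays per strain). Filled diamonds mark genes for which the strains' arrays are fully apart. The intervals come from the main fit, which left out the array number. Every interval crosses 0, and RPN10 lies farthest from it at -0.32.

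RPN4 encodes the activator of the subunit genes. Its signal was 2224 and 1856 on the mutant arrays, against 1963 and 1797 on the wild-type arrays. The mutant's second array fell between the wild-type arrays, and the strains overlapped. The log2 difference was 0.11 ± 0.15 (SE, n = 2 per strain, limma adjusted p = 0.998), with a 95% interval of -0.27 to 0.50. It was 0.18 within number 1 and 0.05 within number 2. Its sign was not stable, at -0.05 in the deposited values and -0.02 without mutant array 1. The median of all genes in the deposited values was -0.15, and signs in them are taken against 0 here and below.

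The 14 core genes had a median log2 difference of -0.06, with 11 negative and 3 positive, but their median was 0.02 without wild-type array 1 and -0.13 without wild-type array 2. In the alpha ring 6 of 7 were negative (median -0.06), and in the beta ring 5 of 7 (median -0.03, which was 0.05 without wild-type array 1, 0.04 without mutant array 2 and -0.12 without wild-type array 2). The alpha ring's median was -0.14 without wild-type array 2. Both mutant arrays were below both wild-type arrays for 2 of 7 alpha genes and 0 of 7 beta genes, against 18.0% of all probe sets.

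Within the alpha ring, SCL1 was lowest. It encodes a subunit of the gated outer ring and had signals of 5706 and 5356 in the mutant, against 6317 and 5898 in the wild type. The mutant arrays were both lower, with a log2 difference of -0.14 ± 0.09 (SE, n = 2 per strain, limma adjusted p = 0.998). PRE6, an alpha subunit that can take a second place in the ring when Pre9 is missing, had 4493 and 4846 in the mutant and 5156 and 5094 in the wild type, again without overlap (-0.14 ± 0.09). PRE8 was the highest of the ring, with 7674 and 7496 in the mutant and 7970 and 7167 in the wild type. Its mutant arrays lay between the wild-type ones, its difference was 0.01 ± 0.09, and the sign turned to -0.11 in the deposited values, -0.01 without mutant array 1 and -0.07 without wild-type array 2. PRE9, the only core subunit gene that yeast can live without, was at -0.11, PUP2 at -0.06, PRE10 at -0.06 and PRE5 at -0.01, all with overlapping arrays.

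The beta ring holds the 3 kinds of active site, and the strains' signals overlapped for the genes of all of them. PRE2, the chymotrypsin-like subunit, had signals of 6812 and 5723 in the mutant and 7026 and 5782 in the wild type, a difference of -0.03 ± 0.14 (SE). PUP1, the trypsin-like subunit, had 5203 and 4607 in the mutant and 5116 and 4493 in the wild type (0.03 ± 0.12). PRE3, the caspase-like subunit, had 7794 and 7995 in the mutant and 8821 and 7772 in the wild type (-0.07 ± 0.09). In all 3 the strains overlapped, and for PRE2 and PUP1 the arrays sorted by number more than by strain.

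The ring's other genes encode subunits without an active site of their own. PRE1 was its highest, with 6660 and 5512 in the mutant and 6434 and 5397 in the wild type. That is a difference of 0.04 ± 0.14 (SE), which was -0.09 in the deposited values and without mutant array 1, and -0.08 without wild-type array 2. PRE7 was its lowest, with 3526 and 3155 in the mutant and 3799 and 3340 in the wild type (-0.10 ± 0.13). Its difference was -0.0001 without wild-type array 1, -0.01 without mutant array 2, -0.17 without mutant array 1 and -0.19 without wild-type array 2. PUP3 stood at -0.05 and PRE4 at -0.02.

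The base had the lowest median of the 4 sub-particles, at -0.12 over 10 genes, with 8 negative and 2 positive. That order did not hold without single arrays. The base stood at -0.04 without mutant array 1 and -0.07 without wild-type array 2, where the alpha ring was at -0.10 and -0.14, and at -0.10 without mutant array 2, where the lid was at -0.11. RPN10, a receptor that captures ubiquitin chains and sits between base and lid, had signals of 1619 and 1554 in the mutant, against 2174 and 1800 in the wild type. Both mutant arrays were lower, by 0.42 within number 1 and 0.21 within number 2 on the log2 scale. The log2 difference of -0.32 ± 0.15 (SE, n = 2 per strain, limma adjusted p = 0.998, unadjusted p = 0.0844) was the farthest from 0 of the 33, and it was -0.18 without wild-type array 1. RPN13, another ubiquitin receptor, was at -0.04 ± 0.11 with overlapping arrays, and RPN1, a scaffold that binds ubiquitin-like domains, at 0.00 ± 0.10. RPN2, the second large scaffold, had 2489 and 2348 in the mutant and 2521 and 2820 in the wild type (-0.14 ± 0.12). Its mutant and wild-type arrays numbered 1 were nearly level, at -0.02, and those numbered 2 were at -0.26.

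The 6 RPT genes encode the ATPases that form the unfolding ring, and after normalization they did not go one way. RPT3 had signals of 5670 and 4857 in the mutant, against 5257 and 4243 in the wild type. Its arrays overlapped between strains, and its difference of 0.15 ± 0.15 (SE) was the highest of the 33, but it was -0.01 in the deposited values and -0.01 without wild-type array 2. RPT5 had 6051 and 5706 in the mutant and 5542 and 5330 in the wild type (0.11 ± 0.09), with both mutant arrays higher. The arrays of RPT5 overlapped in the deposited values, where it was at -0.04, and with median centring. RPT4 had 1843 and 1968 in the mutant and 2063 and 2255 in the wild type (-0.18 ± 0.13), with both lower. RPT2 was at -0.15, RPT6 at -0.14 and RPT1 at -0.11, with overlapping arrays. RPT6 differed between the numbers, at -0.26 within number 1 and -0.02 within number 2.

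The lid split evenly, with 4 of 8 genes negative and a median of -0.04, which was -0.11 without wild-type array 1. RPN8 had signals of 4436 and 4946 in the mutant, against 5235 and 5614 in the wild type. It encodes the inactive partner of the lid's deubiquitinase, and both mutant arrays were lower, with a difference of -0.21 ± 0.10 on the log2 scale (SE, n = 2 per strain, adjusted p = 0.998 and unadjusted p = 0.0996 by limma). Without mutant array 1 it was -0.13. RPN11, the deubiquitinase itself, had 2072 and 2074 in the mutant and 2228 and 2317 in the wild type (-0.13 ± 0.12), also without overlap. The other genes encode scaffold subunits. Of these RPN6 had 2781 and 2721 in the mutant and 2995 and 2894 in the wild type (-0.10 ± 0.11), and RPN5 was at -0.14 with overlapping arrays. RPN7 stood at 0.04, RPN12 at 0.02 and RPN9 at 0.02.

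RPN3, another scaffold subunit of the lid, varied most with the array number. Its signal was 3825 and 5091 in the mutant and 3542 and 4906 in the wild type. The array numbered 2 was the higher one in both strains, by 0.41 in the mutant and 0.47 in the wild type on the log2 scale, while the strains differed by 0.08 ± 0.22 (SE). The sign between strains turned when 1 array was left out, at -0.13 without mutant array 2 and -0.15 without wild-type array 1, and it was -0.09 in the deposited values.

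The step between array numbers was shared by the strains for most of the 33 genes. Going by number, array 2 was on the same side of array 1 in both strains for 29 genes: below in both for 20 and above in both for 9. Over all probe sets 76.2% were on the same side, 36.3% below and 40.0% above. Across the 33 genes the step in the mutant and the step in the wild type had a Pearson's r of 0.81 (Spearman's rho 0.75), and over all probe sets tested r was 0.63. These are correlations across genes, which share the arrays and are not independent. The median size of the step was 0.11 in the mutant and 0.13 in the wild type. The median size of the difference between strains was 0.11 within number 1 and 0.05 within number 2. All 7 beta genes had array 2 below array 1 in the wild type, and 6 of 7 did so in the mutant.

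The difference between strains was also partly shared by the numbers. It had the same sign within number 1 and within number 2 for 27 of the 33 genes, negative in both for 19 and positive in both for 8, against 66.3% of all probe sets with 1 sign in both. Its Pearson's r across the 33 genes was 0.61 (Spearman's rho 0.63), against 0.42 over all probe sets tested. The median difference was -0.07 within number 1 and -0.01 within number 2.

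**Figure D3:**
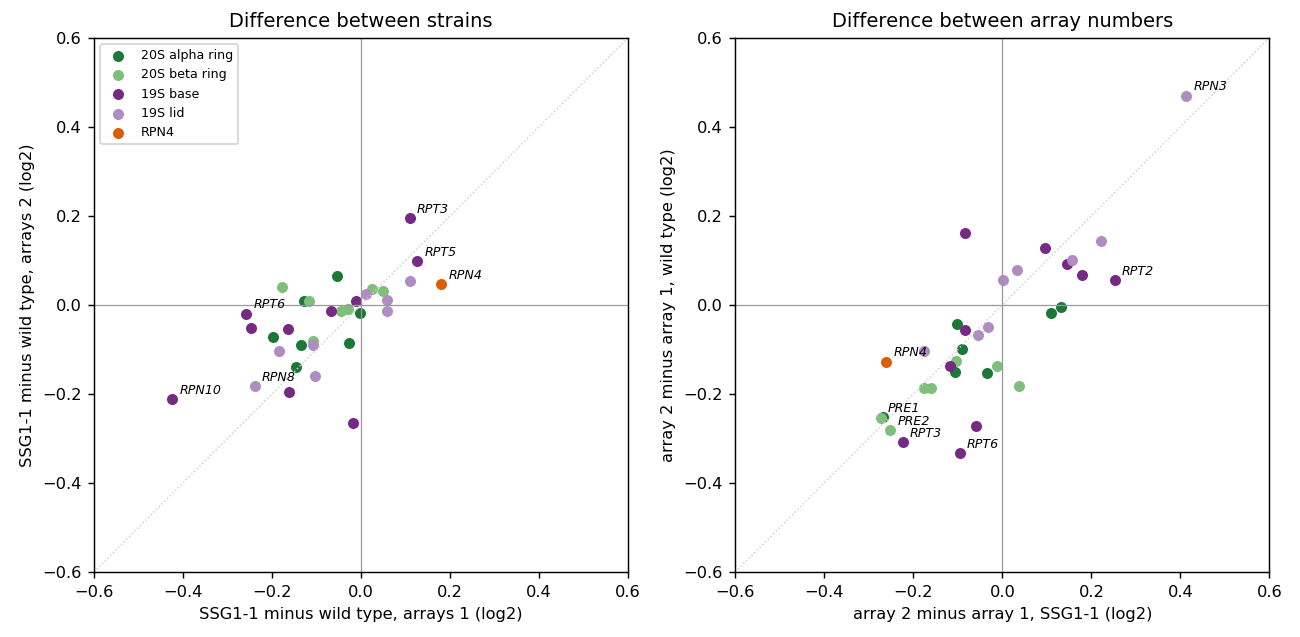
Each point is 1 of the 33 proteasome genes. The left panel sets the log2 difference between strains within arrays numbered 1 (x axis) against that within arrays numbered 2 (y axis), and the right panel sets the step from array 1 to array 2 in the mutant (x axis) against that in the wild type (y axis). RPN10 and RPN8 lie low on both axes of the left panel, and RPN3 lies far out on both axes of the right panel, at 0.41 and 0.47.

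The chaperones that assemble the proteasome had a higher median log2 difference than the 33 genes, which was not tested. Of 10 assembly genes, 9 had positive log2 differences and 1 a negative one, with a median of 0.15. None passed the adjusted threshold in the main fit, and 1 was past an unadjusted p under 0.05. For 6 of the 10 the mutant exceeded the wild type on all arrays, against 14.0% of all probe sets, and for 0 it was below on all arrays. The median was 0.10 without wild-type array 2. The deposited values put it at -0.01 (that of all genes at -0.15), with 4 of 10 differences positive and 2 genes above on all arrays, RPN14 and TMA17, while PBA1, POC4, NAS6, NAS2 and ADD66 turned negative. No share of all probe sets above on all arrays is given for the deposited values, so the 2 genes have no background. Above the median of all genes stood 9 of the 10 after quantile normalization and 9 as deposited. Median centring gives the same count as the deposited values by construction. Within number 1 the list's median was 0.12, and within number 2 it was 0.16.

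UMP1 encodes the maturation factor that is closed into the nascent core and becomes its first substrate. It had signals of 4949 and 4925 in the mutant, against 4341 and 3789 in the wild type. Both mutant arrays were higher, with a log2 difference of 0.28 ± 0.11 (SE, n = 2 per strain, limma adjusted p = 0.998, unadjusted p = 0.0493). It was 0.13 in the deposited values.

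The other 5 without overlap were named after their values were seen. RPN14 and NAS6 encode chaperones that hold the base ATPases. RPN14 had 846 and 659 in the mutant and 625 and 587 in the wild type (0.30 ± 0.18 SE), and NAS6 3915 and 3828 in the mutant and 3617 and 3450 in the wild type (0.13 ± 0.10). TMA17, a further base chaperone, had 387 and 293 in the mutant and 253 and 276 in the wild type (0.35 ± 0.20), most of it within number 1 (0.62, against 0.09 within number 2). PBA1 and POC4, which help to build the alpha ring, were at 0.07 and 0.14. NAS2, HSM3, ADD66 and IRC25 had overlapping arrays, at 0.16, 0.16, 0.02 and -0.06.

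**Figure D4:**
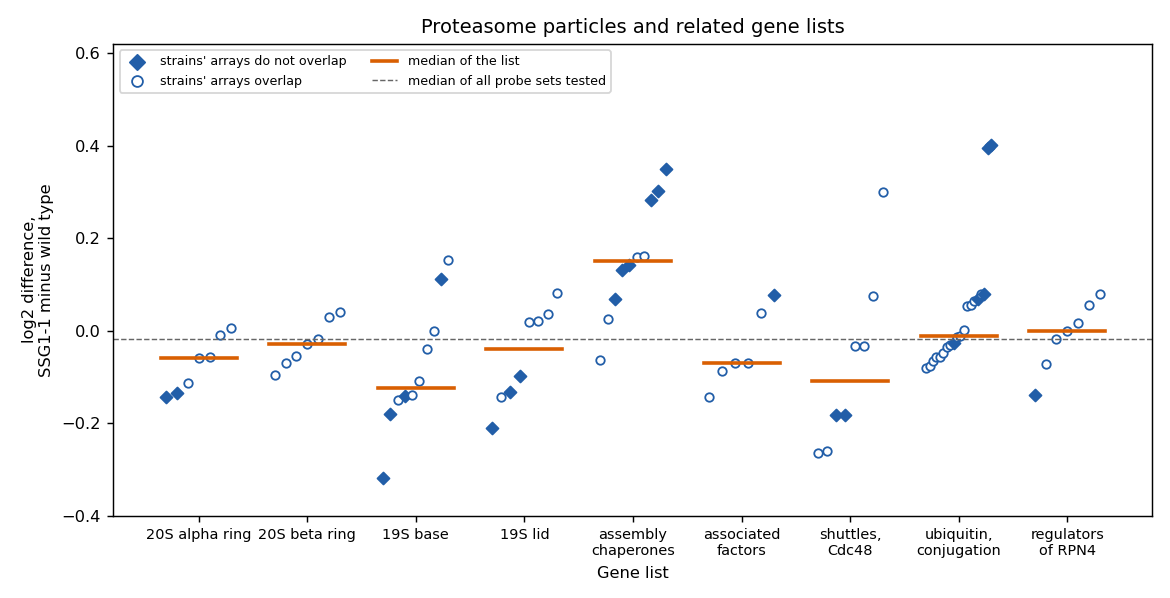
Log2 difference, mutant minus wild type, of every gene in the 4 sub-particles and in 5 related lists, with an orange bar at the median of each list and a dashed line at the median of all probe sets tested. Filled diamonds mark genes for which the strains' arrays are fully apart. The assembly chaperones have a median of 0.15 and the base one of -0.12. UBC5 and UBI4 stand above their list.

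In the other lists around the proteasome no gene passed the adjusted threshold in the main fit. The 6 associated factors had a median of -0.07, with 1 above and 0 below on all arrays (14.0% and 18.0% of all probe sets), and the median was 0.02 without wild-type array 2. The farthest from 0 was BLM10, an alternative cap of the core, with 1596 and 1819 in the mutant, against 1702 and 2080 in the wild type (-0.14 ± 0.16 SE), and it was -0.0008 without wild-type array 2. SEM1, a small lid subunit that was not among the 33, was at -0.07. The 8 genes of ubiquitin shuttles and the Cdc48 complex, which carry or extract tagged proteins, had a median of -0.11, with 0 above and 2 below, against the same 14.0% and 18.0%. That median was -0.06 without mutant array 1 and -0.05 without wild-type array 2. DDI1, a shuttle, was farthest out with 574 and 380 in the mutant and 428 and 336 in the wild type (0.30 ± 0.26), a difference that was 0.0040 without mutant array 1 and 0.61 without mutant array 2. The shuttle genes DSK2 and RAD23, named after their values were seen, were at -0.27 ± 0.17 and -0.26 ± 0.18, with overlapping arrays.

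The 7 regulators of RPN4 or of its protein had a median of 0.00, with 0 above and 1 below, where 14.0% and 18.0% of all probe sets were so placed. The median was -0.14 without mutant array 1 and 0.13 without mutant array 2. That 1 was HSF1, the heat shock factor, with 232 and 228 in the mutant and 272 and 236 in the wild type (-0.14 ± 0.17 SE). Its arrays overlapped in the deposited values and with median centring, and it was at -0.03 without wild-type array 1. YAP1, PDR1 and PDR3, activators that act on the RPN4 promoter, were at 0.08, -0.02 and -0.07. UBR2 and MUB1, which help to tag the Rpn4 protein, were at 0.05 and 0.00.

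The 20 genes of ubiquitin and its conjugation had a median of -0.01, with 4 above and 1 below on all arrays, against 14.0% and 18.0% of all probe sets. The median was 0.09 without mutant array 1 and 0.06 without wild-type array 2. UBC5, a ubiquitin-conjugating enzyme known for its role under stress, had signals of 2493 and 2125 in the mutant, against 1866 and 1640 in the wild type. Both mutant arrays were higher, with a difference of 0.40 ± 0.15 (SE, n = 2 per strain, adjusted p = 0.998 and unadjusted p = 0.0454 by limma). Its close paralog UBC4 was at -0.03 ± 0.06, and whether the 2 probe sets share targets was not tested. UBI4, the stress-induced polyubiquitin gene, was named after its values were seen: it had 7412 and 6045 in the mutant and 5786 and 4442 in the wild type (0.40 ± 0.17, limma unadjusted p = 0.0676), without overlap. The arrays of UBI4 did overlap in the deposited values and with median centring. Its coding repeats resemble the ubiquitin parts of RPL40A, RPL40B and RPS31, so its value is uncertain for UBI4 alone. Those 3 genes were at -0.03, -0.01 and 0.00.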

How the data were processed

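Each probe set has 1 deposited value per array, a linear signal intensity. The submitters' processing notes name GCOS with no version, and 1 deposited table carries MAS5 in its name. How background and scaling were set is not given in the sources. Signals were read from the deposited series table, whose columns carry the samples' own labels. The MAS5 table has 2 value columns that name a strain, each identical to that strain's array 2, and the detection calls beside them were used. Its other 2 value columns name no sample and were left out.

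Gene names came from the platform annotation, with symbols brought up to date through the R64 gene table (12 changed). Of 5498 probe sets for 1 yeast gene, 5376 had a present call in at least 1 usable column and were tested. Signals were floored at 0.1 and log2 signal was quantile normalized, because 2% trimmed means (1034 and 1168 in the mutant, 1298 and 1122 in the wild type) showed no common level. Limma 3.58.1 in R 4.3.3 (lmFit, eBayes with trend) compared the strains with Benjamini-Hochberg adjustment over all probe sets. Errors are moderated standard errors and intervals use 5 degrees of freedom. The fit was tested on simulated data. For genes with more than 1 probe set, the brightest was used.

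The members and lists were chosen with earlier results of these data known. Values on every array are given for RPN4, for members past a threshold and for the highest and lowest of each sub-particle. Others were added because their arrays did not overlap or for their role. Related lists give members past the adjusted threshold, else up to 3 at an unadjusted p under 0.05, else the 1 farthest from 0. No promoter or protein sequence was used here. Plots were made with matplotlib 3.10.9 under Python 3.11.15.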

Additional observations from a re-analysis of the deposited data

How the results depend on the processing

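The strains were also compared with the values as deposited, with median centring, without the mean-variance trend, without the detection filter, with a floor of 32, with a replicate block and without each array in turn. Of these only the block called a proteasome gene. With the replicate block 2 passed, RPN10 (-0.32) and RPN8 (-0.21), as did UMP1 (0.28) and UBC5 (0.40), and 828 probe sets of all genes (15.4%). At an unadjusted p under 0.05 the block gave 1 member higher and 7 lower of 33, against 12.3% of all probe sets higher and 14.1% lower. Same-numbered arrays deviated together from their strain means (correlation 0.634 across probe sets), but no label explains the numbers, and with 2 pairs the block was not made the main design. The probe sets called among all genes numbered 6 as deposited, 3 with median centring, 0 without the trend and 0 with the floor of 32. Without 1 array they numbered 1 to 4.

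As deposited, where all genes had a median of -0.15, the medians were -0.20 for the 33 genes, -0.19 for the core, -0.23 for the alpha ring, -0.29 for the base, -0.19 for the lid, -0.24 for the associated factors, -0.012 for the chaperones, -0.27 for the shuttles, -0.16 for the regulators and -0.10 for conjugation, which stood at 0.064 with median centring. Members above on all arrays numbered 0 as deposited and 0 with median centring, and 2 chaperones were above as deposited. No share of all probe sets is given under these scalings, so these counts have no background. In the deposited values RPN4 was at -0.047, PRE8 at -0.11, PRE1 at -0.095, RPT3 at -0.0093, RPT5 at -0.042 and RPN3 at -0.091. Each turned in sign, and each lay above the -0.15 of all genes. Why the deposited arrays differ in level was not tested.

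Without 1 array, 3 to 10 members were above and 12 to 19 below on all arrays left, a criterion that is looser with fewer arrays. No share of all probe sets is given for it, so these counts have no background. The median ranged from -0.14 to -0.040 for the alpha ring, from -0.14 to 0.13 for the regulators and from -0.023 to 0.087 for conjugation. RPN4 ranged from -0.019 to 0.24, PRE8 from -0.069 to 0.081, PRE1 from -0.094 to 0.18, RPT3 from -0.0060 to 0.30 and RPN3 from -0.15 to 0.33. The planned search for the Rpn4 element in promoters, and its alternative with 1 mismatch, were not run, since no promoter sequence was used here. A strain left with 1 array is assumed to vary like the other. The number of arrays limits the precision.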
